A study of Homo sapiens with 60 samples.

Results

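The genes described here are YAP1 and WWTR1 (TAZ), which encode the transcriptional coactivators at the end of the Hippo pathway, CCN1, CCN2, ANKRD1 and AMOTL2, which are widely used as readouts of YAP and TAZ activity, CAV1 and CAVIN1, which encode the coat of caveolae, and CD44 and LAYN, which encode receptors for hyaluronan. They were taken by symbol from the deposited table, in which all 10 were found among 37334 genes, and 9 of them, all but YAP1, reached the level set for testing. RNA was sequenced from wild-type SH-SY5Y cells at passage 39, which come from a human neuroblastoma and acquire neuron-like features under differentiation. The cells were differentiated for 18 days and were given lead (Pb) at 0, 0.16, 1.26 or 10 µM from day 5 on, with fresh Pb at each change of medium. All groups share the line and the differentiation protocol and differ in day (6, 9, 12, 15 or 18) and dose, with 3 dishes of 15 cm for each of the 20 groups and 1 library per dish (60 libraries). The line is 1 culture at 1 passage, so a p-value here measures the spread between dishes. The library names of day 18 carry another prefix than those of the 48 libraries of days 6 to 15, and what the prefix marks is not said, so day 18 and whatever it marks cannot be told apart.

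In the Hippo pathway, a cascade of kinases phosphorylates YAP and TAZ and keeps them in the cytoplasm. When the cascade is low, as in cells that spread on a stiff matrix, YAP and TAZ enter the nucleus, bind TEAD transcription factors and switch on genes for matrix proteins, the cytoskeleton and growth. Caveolae are small flask-shaped pits of the plasma membrane that flatten under tension, and their coat needs caveolins and cavins together. CD44 and layilin bind hyaluronan, a large sugar polymer of the extracellular matrix, and link it to the actin cytoskeleton.

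Promoter windows were available for 7 of the 10 genes (250 bases upstream of each annotated transcript start, RefSeq, GRCh38.p14). They are shown for 3 target genes that fell after day 9, because TEAD, through which YAP and TAZ act, binds a core of known letters. CCN1, CAVIN1 and LAYN, which also fell from day 9 to day 12, had no window. Each sequence runs 5′ to 3′ on the strand of the gene, and capitals mark the TEAD core GGAATG, or CATTCC where the match is on the other strand. CCN2 (chr6:131951373-131951622, minus strand) held 3 cores, which began at positions -169, -104 and -95 from the transcript start, ANKRD1 (chr10:90921088-90921337, minus strand) held 2, at -220 and -128, and the downstream of the AMOTL2 windows (chr3:134374448-134374697, minus strand) held 1, at -69.
CCN2: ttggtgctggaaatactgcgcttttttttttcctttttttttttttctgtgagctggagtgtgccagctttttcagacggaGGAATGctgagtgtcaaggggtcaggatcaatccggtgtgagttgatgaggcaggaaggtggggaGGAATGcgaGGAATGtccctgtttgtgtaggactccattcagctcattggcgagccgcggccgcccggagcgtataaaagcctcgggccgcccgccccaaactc
ANKRD1: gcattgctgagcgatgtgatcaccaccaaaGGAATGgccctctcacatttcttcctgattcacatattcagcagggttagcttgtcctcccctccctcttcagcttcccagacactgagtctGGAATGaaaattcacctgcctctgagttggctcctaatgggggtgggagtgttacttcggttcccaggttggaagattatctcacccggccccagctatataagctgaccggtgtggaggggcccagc
AMOTL2: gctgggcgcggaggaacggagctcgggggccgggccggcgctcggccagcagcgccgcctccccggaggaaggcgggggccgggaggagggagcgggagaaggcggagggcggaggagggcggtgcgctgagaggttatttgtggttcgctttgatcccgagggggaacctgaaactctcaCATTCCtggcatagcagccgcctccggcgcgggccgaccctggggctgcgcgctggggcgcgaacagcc
The core was found on either strand in 11.9% of 35116 promoter windows of this length, at least 2 copies were found in 0.94% of them and at least 3 in 0.0826%. YAP1 had 1 core, at -162, and the windows of WWTR1, CAV1, CD44 and the other AMOTL2 start had none. The letters TGANTCA, a loose form of the AP-1 site in which N is any base, were searched on both strands as well. They lay in the ANKRD1 window at -195, with T at N (6.57% of all windows held TGANTCA), and TATAAA lay in the CCN2 window at -32 (10.7% of all windows). No position found for one of these motifs overlapped another. A match of letters does not show that a factor was bound.

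Values are counts per 1000000 assigned reads (CPM). The libraries held 16594259 to 50539599 assigned reads, so that 3 reads, the floor below which a level is not read as different from 0, equalled 0.0594 to 0.181 CPM, and this floor covers counting error only. CPM is not corrected for transcript length, so levels are compared between conditions for a gene and not between genes. Differences were tested as log2(CPM + 1) with limma over 15263 genes, and a gene is said to have risen or fallen where the Benjamini-Hochberg adjusted p was under 0.05. The added 1 makes these differences smaller than the fold of CPM for low genes. In the day 18 library 0 µM replicate 1 and the day 6 library 10 µM replicate 3, long transcripts were under-represented (slope of log2 deviation on log10 transcript length -0.514 and -0.487, against -0.193 in the next lowest library), and results that rest on them are given without them.

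Of the coactivators, WWTR1 reached 1 CPM in 38 of 60 libraries and fell with Pb, and YAP1 reached 1 CPM in none. YAP1 (chr11:102110447-102233424) had 377 reads in all 60 libraries together, a median of 0.19 CPM and a highest value of 0.838 CPM, and 10 libraries had none. At day 6 without Pb it was 0.683, 0.423 and 0.292 CPM, and with 10 µM it was 0.096, 0.0589 and 0.0433 CPM. The groups did not overlap, and the mean was 7.06-fold higher without Pb (37 against 5 reads). Each 10 µM value lay below the floor of 3 reads in its library (0.144, 0.0883 and 0.13 CPM), and 0.0433 CPM is from the library low in long transcripts. The size of this fold is therefore uncertain. At day 9 the values without Pb were 0.199, 0.583 and 0.662 CPM and those with 10 µM were 0.115, 0.145 and 0.2 CPM, which overlapped. YAP1 was lowest at day 15, when 10 reads were found in 12 libraries and none in the 6 libraries of 1.26 and 10 µM. When the filter on low genes was dropped (28540 genes tested), the mean YAP1 difference over days passed at 10 µM (-0.24 ± 0.061 on the log2 scale, SE, adjusted p = 0.0067), and no dose passed the threshold at a single day (10 µM at day 6: -0.45, adjusted p = 0.162). In the same fit it was lower at day 15 than at day 6 without Pb (-0.44, adjusted p = 0.00893).

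WWTR1 (chr3:149517235-149724788) ranged from 0.391 to 3.01 CPM. Without Pb it was 1.32, 1.63 and 1.35 CPM at day 6, 1.82, 3.01 and 1.56 CPM at day 9, 1.97, 2.16 and 2.48 CPM at day 12, 1.36, 1.24 and 1.4 CPM at day 15, and 1.28, 1.5 and 2.11 CPM at day 18. Its highest means were therefore at days 9 and 12, which overlapped. The rise from day 6 to day 12 (+0.40 ± 0.17, adjusted p = 0.044) and the fall from day 12 to day 15 (-0.45 ± 0.17, adjusted p = 0.031) passed the test. Both calls depended on the setting and on single libraries. The rise was lost with a pseudocount of 0.25 (adjusted p = 0.0796), with no filter (0.0755) and with edgeR (0.0558), and the fall likewise (0.0598, 0.0531 and 0.0542). The rise was also lost without 0 µM day 6 replicate 1 (adjusted p = 0.112) or replicate 3 (0.101) or day 12 replicate 2 (0.0739) or replicate 3 (0.139), and the fall without day 12 replicate 2 (0.0604) or replicate 3 (0.113) or any of the day 15 replicates (0.0525 to 0.0841).

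With 10 µM Pb, WWTR1 was lower at every day, and the libraries of 0 and 10 µM did not overlap at any of the 5 days. The 10 µM values were 0.72, 0.559 and 1.13 CPM at day 6, 1.07, 1.13 and 0.867 CPM at day 9, 0.732, 0.74 and 0.727 CPM at day 12, 1.12, 0.391 and 0.505 CPM at day 15 and 0.566, 0.485 and 0.855 CPM at day 18. The difference passed the test at day 12 (-0.88 ± 0.17, adjusted p = 0.000596, 3.01-fold) and day 18 (-0.68 ± 0.17, adjusted p = 0.00195, 2.57-fold). At day 9 the estimate was -0.61 (adjusted p = 0.057, or 0.0434 when the 2 libraries with few long transcripts were left out) and at day 15 it was -0.51 (0.0675). Averaged over days, WWTR1 fell by 0.46 ± 0.076 with 1.26 µM (adjusted p = 7.26e-05) and by 0.62 ± 0.076 with 10 µM (1.18e-08). At 0.16 µM the mean difference was -0.19 (95% interval -0.34 to -0.04, adjusted p = 0.463). Within a day, the 3 doses share their 0 µM libraries. At 1.26 µM on day 18 the values were 0.534, 0.929 and 1.13 CPM, and the fall there (-0.50 ± 0.17, adjusted p = 0.0448) was lost without 0 µM day 18 replicate 1 (0.133), replicate 2 (0.0595) or replicate 3 (0.162) and without 1.26 µM day 18 replicate 1 (0.218) or replicate 2 (0.0734).

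**Figure D1:**
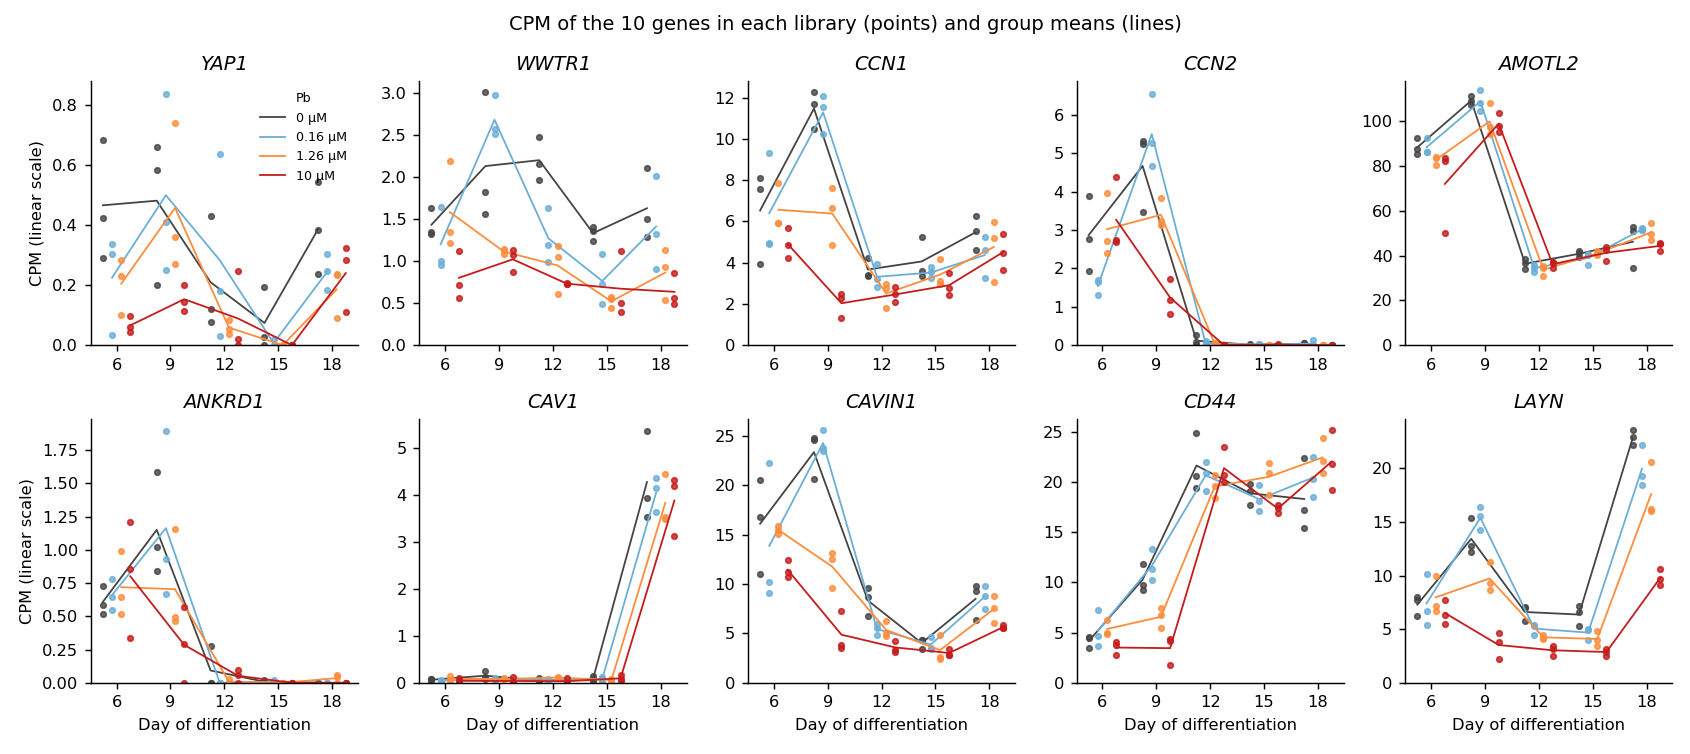
CPM (linear scale, its own range in each panel) of the 10 genes against the day of differentiation. Points are single libraries, lines join the means of 3 libraries and colours are Pb doses. CCN2 and ANKRD1 are near 0 from day 12 on, CAV1 is above 0.241 CPM only at day 18 (3.14 to 5.36 CPM), and the 10 µM line of LAYN lies below the 0 µM line at all days.

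Of the target genes, CCN1, CCN2 and ANKRD1 had their highest means at day 9 without Pb, and from day 12 on CCN2 and ANKRD1 were almost absent. CCN2 (CTGF, chr6:131948176-131951372), a matricellular protein of connective tissue, was 2.78, 3.9 and 1.93 CPM at day 6, 3.47, 5.32 and 5.24 CPM at day 9, and 0.27, 0 and 0.08 CPM at day 12. The libraries of day 12 were all below those of day 6. The fall from day 6 to day 12 was 24.6-fold (243 to 9 reads, -1.77 ± 0.15, adjusted p = 1.98e-14), and from day 9 it was 40-fold (-2.33 ± 0.15, adjusted p = 1.23e-18). Of the 9 reads at day 12 all but 2 lay in replicate 1, and without it the ratios of pooled CPM were 84.6 (95% interval of the counts 23.2 to 703) and 130 (35.6 to 1074). At days 15 and 18 the highest value at any dose was 0.124 CPM, and no read was found in 8 of 12 libraries at day 15 and 9 of 12 at day 18. ANKRD1 (chr10:90912096-90921087), a nuclear and sarcomeric ankyrin repeat protein, was 0.729, 0.514 and 0.584 CPM at day 6, 1.02, 1.59 and 0.843 CPM at day 9 and 0, 0.277 and 0 CPM at day 12. It fell from day 9 to day 12 by 12.4-fold (99 to 9 reads, -0.97 ± 0.15, adjusted p = 5.83e-07). All 9 reads lay in day 12 replicate 2, and without it the level at day 12 was at least 20.3-fold lower, against the floor of 3 reads over the group. At day 18 without Pb it had no read, which places it at least 16.4-fold lower than at day 6, with the 3-read floor taken over the group. ANKRD1 reached 1 CPM in only 5 libraries, all at days 6 and 9, so it entered the test through the days at which it was high.

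CCN1 (CYR61, chr1:85580761-85583950), the matricellular relative of CCN2, rose at day 9 and fell back without disappearing. It was 3.92, 8.11 and 7.55 CPM at day 6, 11.7, 12.3 and 10.5 CPM at day 9 and 4.21, 3.42 and 3.36 CPM at day 12. It was 3.58, 3.33 and 5.26 CPM at day 15 and 4.62, 5.52 and 6.27 CPM at day 18, and neither day differed from the one before beyond the test (adjusted p = 0.738 and 0.173). The libraries of day 18 lay above those of day 12, a difference that was not tested. The fall from day 9 to day 12 was 3.13-fold (-1.42 ± 0.21, adjusted p = 1.14e-07). The rise from day 6 to day 9 (+0.78 ± 0.21, adjusted p = 0.0163) was lost without 0 µM day 6 replicate 1 (0.284), the lowest library, or without 0 µM day 9 replicate 1 (0.05004) or replicate 2 (0.0804), and with only the groups compared (0.0716). The corresponding rise of CCN2 (+0.57 ± 0.15, adjusted p = 0.0127) was lost without 0 µM day 6 replicate 3 (0.162), day 9 replicate 2 (0.113) or day 9 replicate 3 (0.0936), and with edgeR (0.376), a pseudocount of 0.25 (0.0909) or only the groups compared (0.175). Relative to day 6, CCN1 was lower at day 12 (-0.64, adjusted p = 0.0077) and day 15 (-0.54, 0.0235). Without 0 µM day 6 replicate 2 those became 0.0757 and 0.163, without replicate 3 they became 0.0535 and 0.119, and the day 15 difference was also lost without 0 µM day 15 replicate 1 (0.0799) or replicate 2 (0.107), with no filter (0.0504) or with only the groups compared (0.0525).

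AMOTL2 (chr3:134355345-134375417), a scaffold that binds YAP and that YAP in turn induces, was highest at day 9 as well. It was 92.5, 87.5 and 85.3 CPM at day 6, 111, 107 and 109 CPM at day 9 and 38.6, 36.7 and 33.9 CPM at day 12, with no overlap between any of these days. It fell 2.43-fold from day 6 to day 12 (-1.26 ± 0.11, adjusted p = 5.11e-14). The difference of +0.30 between day 9 and day 6 did not pass (adjusted p = 0.0979), but it did without the libraries low in long transcripts (0.000576). At day 15 it was 41.9, 39.3 and 41.3 CPM and at day 18 it was 34.7, 52.9 and 51.1 CPM, where 34.7 CPM is the library low in long transcripts. Without the libraries low in long transcripts the differences of day 15 from day 12 (+0.16, adjusted p = 0.0272) and of day 18 from day 15 (+0.34, 0.000161) passed as well. With Pb, AMOTL2 passed the test at no dose and no day over all libraries, and without those 2 libraries it was lower with 10 µM at day 18 (-0.22, adjusted p = 0.0136, against 0.847 over all libraries). The 10 µM differences ran from -0.33 (day 6, adjusted p = 0.139) to +0.01 (day 15), and at day 9 the 95% interval was -0.36 to 0.08. At day 6 with 10 µM it was 83.6, 82.2 and 50.3 CPM, of which 50.3 CPM is again the library low in long transcripts. The day 6 difference passed without 10 µM day 6 replicate 1 (0.0154) or replicate 2 (0.0304), which leaves the 50.3 CPM library with more weight. As the mean over days the 10 µM difference was -0.10 ± 0.048 (adjusted p = 0.179), and 0.0216 without those 2 libraries.

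At day 9, CCN1, CCN2 and ANKRD1 fell with 10 µM Pb. AMOTL2 was 95.3, 98 and 104 CPM with 10 µM, below every library without Pb (107 to 111 CPM), but this smaller difference did not pass the test. CCN1 was 1.3, 2.49 and 2.3 CPM with 10 µM against the 10.5 to 12.3 CPM without Pb, which is 5.65-fold lower (-2.06 ± 0.21, adjusted p = 6.55e-10). CCN2 was 1.19, 1.74 and 0.8 CPM, 3.77-fold lower (-1.34 ± 0.15, adjusted p = 5.12e-09). Neither gene's 10 µM libraries overlapped those without Pb. ANKRD1 was 0, 0.289 and 0.567 CPM, 4.03-fold lower (27 against 99 reads, -0.75 ± 0.15, adjusted p = 0.00207). That call rests on few reads and was lost without 0 µM day 9 replicate 2 (0.0633) or 10 µM day 9 replicate 1 (0.0858) and with edgeR (0.173) or only the groups compared (0.216). Of the 27 reads with 10 µM, all but 10 lay in replicate 3, without which the level was 7.96-fold lower.

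At 0.16 µM the day 9 values were near those without Pb. CCN1 was 11.5, 12.1 and 10.2 CPM and CCN2 was 6.56, 5.27 and 4.68 CPM, both overlapping the values without Pb. At 1.26 µM CCN1 was 7.61, 6.65 and 4.87 CPM, below every library without Pb (1.8-fold, -0.77, adjusted p = 0.0964), and CCN2 was 3.25, 3.12 and 3.83 CPM, overlapping them. At day 6, 1 day after Pb was first given, CCN2 was no lower with 10 µM (2.73, 4.39 and 2.69 CPM) than without it. With 0.16 µM at day 6 it was 1.7, 1.64 and 1.29 CPM, below every library without Pb (lowest 1.93 CPM). That difference did not pass (adjusted p = 0.276) but did without 0 µM day 6 replicate 3 (0.0429). With 1.26 µM at day 6 it was 2.4, 3.96 and 2.72 CPM. From day 12 on CCN2 and ANKRD1 were too low for a difference with Pb to be detectable at this depth. CCN1 could still be measured, and its 10 µM differences at days 12, 15 and 18 were -0.43, -0.36 and -0.23, none past the test. As the mean over days CCN1 fell by 0.68 ± 0.093 at 10 µM (adjusted p = 1.98e-07), and CCN2 fell by 0.28 ± 0.066 (adjusted p = 0.00166 by limma and 0.0795 by edgeR). At 1.26 µM the mean difference of CCN1 was -0.31 ± 0.093 with an adjusted p of 0.04995, which 5 of 8 other settings and 42 of 60 omissions of a single library moved past 0.05.

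**Figure D2:**
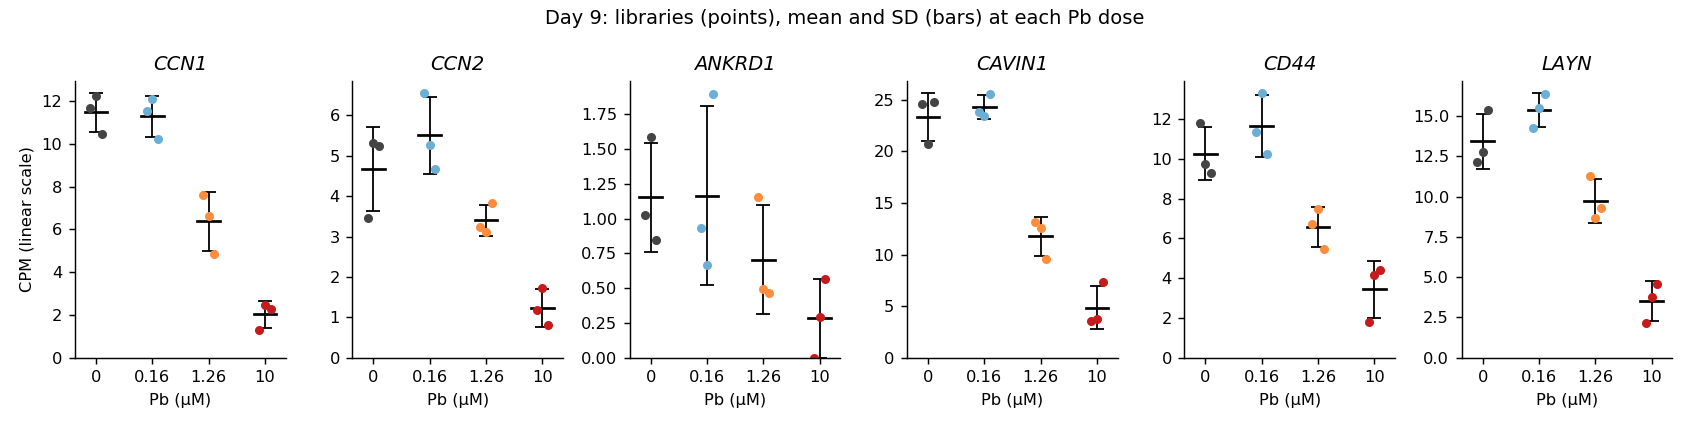
CPM (linear scale) at day 9 of the 6 genes whose fall with 10 µM Pb passed the test, against the dose in µM. Points are libraries and bars are the mean and SD of 3 libraries. The 0 and 0.16 µM groups overlap in all 6 panels, and no 10 µM library reaches the lowest library without Pb.

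The caveolar genes took different courses. CAVIN1 (PTRF, chr17:42402449-42423256), the cavin that caveolae cannot form without, was measured at all days and fell with 10 µM Pb at days 9 and 12, and CAV1 (chr7:116525009-116561185), the main caveolin outside muscle, was near 0 until day 18. CAVIN1 without Pb was 20.5, 16.8 and 11 CPM at day 6, 24.6, 20.7 and 24.8 CPM at day 9 and 8.69, 9.59 and 6.72 CPM at day 12. It reached its lowest values of 4.37, 3.41 and 4.29 CPM at day 15 and was 9.32, 9.77 and 6.39 CPM at day 18. Days 6 and 9 did not differ beyond the test, and each later step did. CAVIN1 fell from day 9 to day 12 (-1.39 ± 0.21, adjusted p = 3.45e-07) and from day 12 to day 15 (-0.89, 0.000882), and was higher at day 18 than at day 15 (+0.90, 0.00111).

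With 10 µM Pb, CAVIN1 at day 9 was 3.52, 3.79 and 7.3 CPM, 4.79-fold below the level without Pb (-2.10 ± 0.21, adjusted p = 7.58e-10). At 1.26 µM it was 13.1, 12.6 and 9.59 CPM, 1.99-fold lower (-0.94 ± 0.21, adjusted p = 0.0215), and at 0.16 µM it was 23.8, 23.5 and 25.6 CPM. At day 9 the groups of 0 and 0.16 µM overlapped and lay above that of 1.26 µM, which lay above that of 10 µM, with no overlap at either step. The 1.26 µM call was lost without 0 µM day 9 replicate 1 (0.104) or replicate 3 (0.132) and without 1.26 µM day 9 replicate 2 (0.0553) or replicate 3 (0.309), and with only the groups compared (0.0747). At day 12 the 10 µM libraries were 3.13, 3.35 and 4.26 CPM, 2.33-fold lower (-1.02 ± 0.21, adjusted p = 0.00183). At day 15 they were 2.76, 3.45 and 2.83 CPM and overlapped the control values. At day 18 they were 5.86, 5.53 and 5.51 CPM, below all controls (-0.50 ± 0.21, adjusted p = 0.0757), a difference that passed without 0 µM day 18 replicate 3 (0.0247) or without 0.16 µM day 6 replicate 2 (0.0389). Its mean over days fell by 0.38 ± 0.096 with 1.26 µM (adjusted p = 0.0135) and by 0.87 ± 0.096 with 10 µM (9.62e-10).

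CAV1 lay between 0 and 0.241 CPM in the 48 libraries of days 6 to 15 (median 0.0751 CPM), which is about the floor of 3 reads. At day 18 it was 3.94, 3.54 and 5.36 CPM without Pb and 3.14 to 5.36 CPM over all 12 libraries. The step from day 6 to day 18 without Pb was 66.1-fold (5 to 337 reads, +2.30 ± 0.098, adjusted p = 5.61e-25). CAV1 passed the test at no dose and no day. At day 18 it was 4.2, 3.14 and 4.32 CPM with 10 µM, and the difference of -0.11 had a 95% interval of -0.30 to 0.09. CAV1 passed the filter through day 18 only, the day whose library names carry the other prefix.

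Markers of epithelial cells moved with CAV1. The 7 epithelial markers (EPCAM, CDH1, KRT5, KRT14, KRT17, CLDN4, SFN) summed to 8.97 to 26.1 CPM in the libraries of days 6 to 15 and to 95.7 to 141.7 CPM at day 18. All of the 6 that could be tested were higher on day 18 relative to day 6 (66.8% of all genes passed in that comparison, in either direction). Before day 18 KRT14 and KRT17 stayed below 1 CPM (highest 0.843 and 0.866 CPM), and KRT5 passed it only in 0 µM day 9 replicate 3. These keratins entered the test through day 18, so the count is a description. CDH1, which defines epithelial cells, was too low to test. It was 0 to 0.163 CPM in the libraries of days 6 to 15, with no read in 34 of 48, and 0.203 to 0.723 CPM at day 18. The genes whose 20 group means followed CAV1 most closely were KRT5, AREG and KRT6A (Pearson r = 0.999 for each). KRT5, a keratin of basal epithelial cells, was 0.292 to 1.08 CPM before day 18 and 28.1 to 44.0 CPM at day 18. KRT6A went from 0.0647-0.681 CPM to 18.4-29.9 CPM, and AREG, an epidermal growth factor receptor ligand, from 0.0294-0.481 CPM to 9.57-19.5 CPM. In bulk RNA the number of cells of a type and the RNA per cell cannot be told apart, and the part of these markers in the CAV1 result was not tested.

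**Figure D3:**
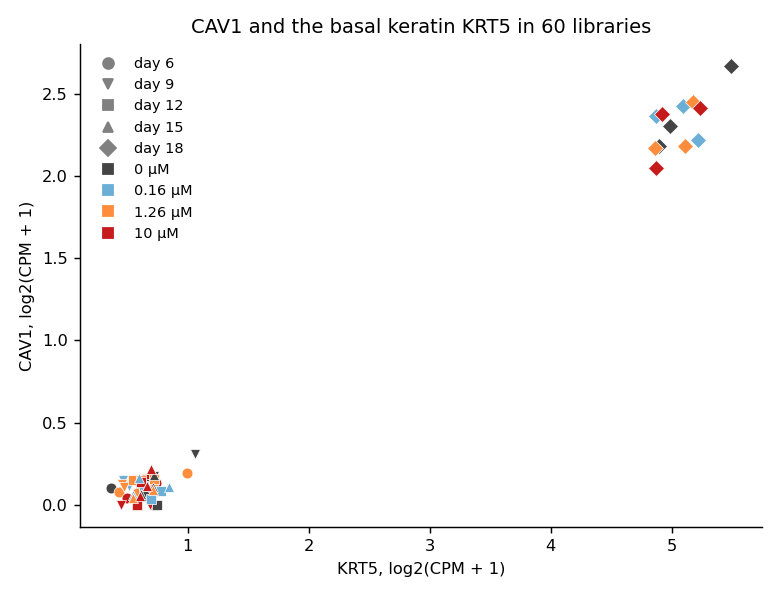
CAV1 against KRT5 in the 60 libraries, both as log2(CPM + 1), with the day as symbol and the dose as colour. All 12 libraries of day 18 lie apart from the other 48 on both axes, and neither cloud separates by dose.

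The hyaluronan receptors took different courses over differentiation. CD44 (chr11:35139171-35232402) rose early and stayed up. Without Pb it was 4.51, 4.51 and 3.46 CPM at day 6, 11.8, 9.72 and 9.27 CPM at day 9, 19.4, 20.6 and 24.9 CPM at day 12, 17.7, 19.8 and 19.1 CPM at day 15, and 15.4, 17.2 and 22.4 CPM at day 18. The groups of days 6, 9 and 12 did not overlap, and those of days 12, 15 and 18 did. It rose 2.47-fold to day 9 (+1.13 ± 0.17, adjusted p = 4.38e-06) and 5.2-fold to day 12 (+2.13 ± 0.17, adjusted p = 2.52e-15). LAYN (chr11:111540280-111561745) rose at day 9, returned and was highest at day 18. It was 6.24, 7.96 and 7.7 CPM at day 6, 12.2, 12.8 and 15.3 CPM at day 9, 6.95, 7.09 and 5.76 CPM at day 12, 6.59, 7.2 and 5.3 CPM at day 15 and 22.1, 23.6 and 22.9 CPM at day 18. Days 6, 12 and 15 did not differ beyond the test from each other, where tested, and the rise to day 9 (+0.80 ± 0.16, adjusted p = 0.000961), the fall to day 12 (-0.92, 4.63e-06) and the difference of day 18 from day 15 (+1.70, 1.57e-11) passed it.

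With Pb, CD44 passed the test at day 9 alone, and its difference with 10 µM changed between days (moderated F test, adjusted p = 4.76e-06). LAYN was lower at days 9, 12, 15 and 18. CD44 at day 9 was 1.8, 4.14 and 4.4 CPM with 10 µM, 2.98-fold lower (-1.39 ± 0.17, adjusted p = 5.49e-08), 6.74, 7.48 and 5.49 CPM with 1.26 µM and 11.3, 13.3 and 10.2 CPM with 0.16 µM. The 10 µM level at day 9 overlapped that at day 6 with 10 µM (4.03, 3.77 and 2.73 CPM). By day 12 CD44 with 10 µM was 19.9, 20.7 and 23.5 CPM, within the range of the controls (difference -0.01, 95% interval -0.35 to 0.33). When the model was fitted to the day 9 groups of 0 and 10 µM alone the adjusted p for CD44 was 0.0517, and the 1.26 µM difference at day 9 passed without 10 µM day 9 replicate 1 (0.0499).

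LAYN with 10 µM was 2.18, 3.79 and 4.6 CPM at day 9, 3.81-fold lower (-1.71 ± 0.16, adjusted p = 1.49e-10). It was 2.45, 3.45 and 3.19 CPM at day 12 (2.18-fold lower, -0.92, adjusted p = 0.000197), 2.52, 3.16 and 2.92 CPM at day 15 (2.22-fold, -0.92, 0.000115), and 9.65, 10.6 and 9.12 CPM at day 18 (2.34-fold, -1.15, 3.4e-07). At day 6 the 10 µM values of 6.33, 5.45 and 7.76 CPM overlapped the controls. The 4 later differences lay on top of opposite movements over time, a fall from day 9 to day 12 and a rise to day 18, and at day 18 the dose groups were ordered without overlap between 0 µM and 1.26 µM (16.2, 16 and 20.6 CPM) or between 1.26 µM and 10 µM. The 0.16 µM group at day 18 (19.3, 22.2 and 18.5 CPM) overlapped its neighbours on both sides. Averaged over days, LAYN fell by 0.35 ± 0.073 with 1.26 µM (adjusted p = 0.00181) and by 0.97 ± 0.073 with 10 µM (1.77e-14).

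Across the 10 genes, calls for 10 µM Pb were most numerous at day 9. Of the 9 genes tested, 0 passed at day 6 (0.655% of all genes passed there, 2 members had an unadjusted p under 0.05 and edgeR called 0). At day 9, 6 were lower (1.41% of all genes passed, 0.963% as lower), of which ANKRD1 and CD44 were lost with only the groups compared and ANKRD1 with edgeR. The number lower was 3 at day 12 (5.37%, 2.34% as lower), 1 at day 15 (5.68%, 3.18%) and 2 at day 18 (28.9%, 16.9%). None was higher at any of these days. The median difference of the members at day 9 was -1.34, against 0.01 for all genes tested. The members were chosen with earlier results of these data known, and CCN2 and ANKRD1 entered the tests through days 6 and 9. The counts and the median are therefore a description and not a test of the set. At 1.26 µM CAVIN1 was the member that passed at day 9 (0.400% of all genes, 0.269% as lower) and WWTR1 at day 18 (12.4%, 3.28%), and 0 members passed at day 6 (0.00%), day 12 (0.0459%) and day 15 (1.26%), with 0, 4 and 2 at an unadjusted p under 0.05. At 0.16 µM 0 members passed at days 6, 9, 12, 15 and 18 (0.00%, 0.0131%, 0.0197%, 0.0131% and 6.34% of all genes), with 1, 0, 2, 2 and 0 at an unadjusted p under 0.05 and 0 by edgeR. The shares of all genes at day 18 rested in part on the 0 µM library low in long transcripts: without the 2 such libraries 117 genes passed at 0.16 µM in place of 967 and 583 at 1.26 µM in place of 1890, and with only the groups compared 0 passed at either dose. At 10 µM on day 6, 23 genes passed in place of 100 without those libraries. These comparisons share their 0 µM libraries within each day. For the mean over days 0 members passed at 0.16 µM (0.124% of all genes, with 1 member unadjusted), 4 were lower at 1.26 µM (3.84%, 2.17% as lower) and 6 at 10 µM (15.1%, 8.13%). Per dose step 6 fell (15.7% of all genes, 8.39% as lower), with LAYN (-0.31), CAVIN1 (-0.29), CCN1 (-0.22) and WWTR1 (-0.21) the largest.

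Whether the Pb difference itself changed between days was tested with a moderated F test. For 10 µM it passed for 6 of the 9 members (21.7% of all genes), namely CCN1, CCN2, ANKRD1, CAVIN1, CD44 and LAYN, and not for WWTR1, AMOTL2 or CAV1. The ANKRD1 result (adjusted p = 0.0125) was lost without 0 µM day 9 replicate 2 (0.085) or 10 µM day 9 replicate 1 (0.0985), with edgeR (0.260) and without day 18 (0.0512). CCN2 and ANKRD1 were near 0 from day 12 on at every dose, so on the log2(CPM + 1) scale their difference had to be small there, and for them the test does not show a change in the response to Pb. Over all doses it also passed for 6 (11.8%), with WWTR1 in place of ANKRD1. The WWTR1 result (0.0488) was lost in 43 of 60 omissions of a single library, with a pseudocount of 0.25 (0.104), with no filter (0.0857) and with edgeR (0.105).

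**Figure D4:**
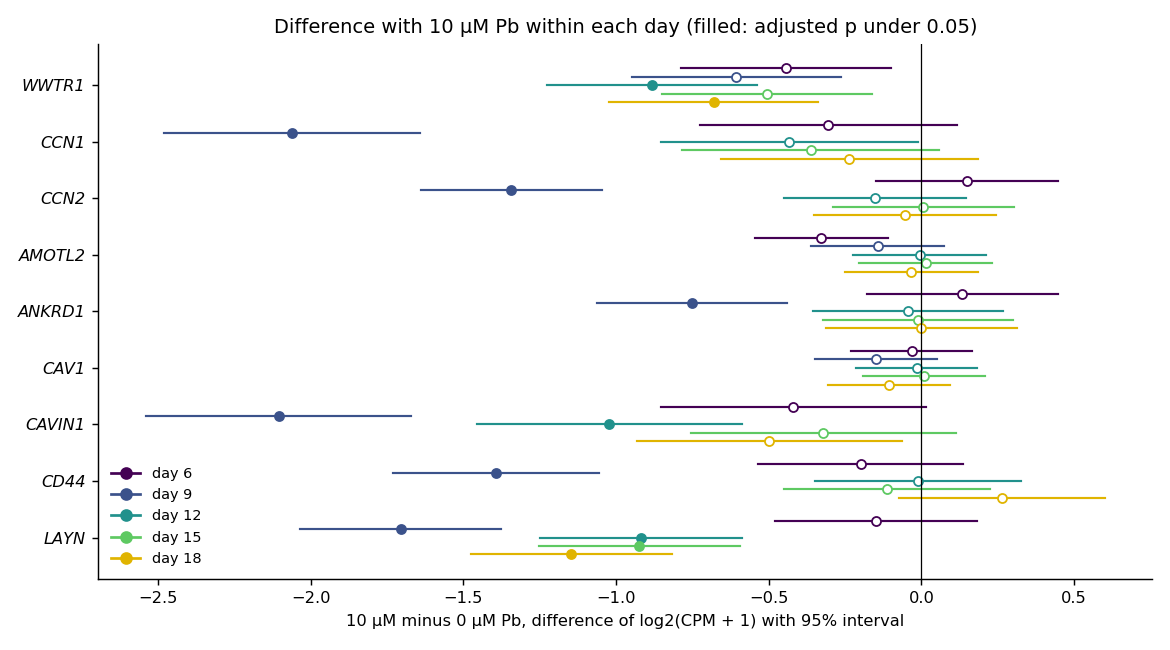
Difference between 10 µM and 0 µM Pb within each day, on the log2(CPM + 1) scale with 95% intervals, for the 9 genes tested. Colours are days and filled points have an adjusted p under 0.05. Among the 5 days of each gene, the day 9 point lies furthest to the left for CCN1, CCN2, ANKRD1, CAVIN1, CD44 and LAYN. Only LAYN is filled at 4 days.

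Over differentiation without Pb, 4 of the 9 members were higher on day 9 than on day 6 (5.14% of all genes passed, 2.63% higher), and 2 without 0 µM day 9 replicate 2. By day 12, 2 were higher and 5 lower (56.2%), by day 15, 1 and 5 (58.3%), and by day 18, 3 and 4 (66.8%). Between neighbouring days, 1 rose and 6 fell from day 9 to day 12 (54.4%), 2 fell from day 12 to day 15 (37.0%, 14.8% as lower) and 3 were higher on day 18 than on day 15 (33.3%, 18.4% as higher). A large share of all genes passed in each of these later comparisons, and CCN2, ANKRD1 and CAV1 entered the tests only through the days at which they were high, so these counts are a description. The median of all genes from day 6 to day 12 was -0.11 and -0.0065 after rescaling by median ratios, and the directions given above were the same after that rescaling.

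Similarity between members was described over the 20 group means of log2(CPM + 1), which share days, library name prefixes and control libraries. After the mean of each day was taken away, so that only the doses differ, CCN1 and CAVIN1 had r = 0.941, CAVIN1 and LAYN 0.918, CCN1 and ANKRD1 0.912 and CCN1 and CD44 0.908. WWTR1 had 0.814 with LAYN and 0.796 with CAVIN1. AMOTL2 had at most 0.495 with another member, and CAV1 at most 0.568. Over the group means as they stand, the time course dominated, and CCN2 and ANKRD1 had r = 0.986. The genes with the closest pattern in the whole table were CYP24A1 for CCN2 (0.989) and the same gene, after CCN2, for ANKRD1 (0.984), BHLHE41 for CCN1 (0.912), TSTD2 for AMOTL2 (0.987), WNT5A for WWTR1 (0.844), KRT18 for CAVIN1 (0.949), ANXA2 for CD44 (0.970) and S100A10 for LAYN (0.906). With the mean of each day removed they were IL32 for CCN1 (0.960) and CAVIN1 (0.967) and TAP1 for LAYN (0.972), and VIM came next for CAVIN1 (0.963).

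The other genes of these pathways gave the members a setting, and their lists were also chosen with earlier results of these data known. Of 18 further YAP and TAZ target genes, 16 were tested, and with 10 µM as the mean over days 5 were lower and 1 higher (15.1% of all genes passed, 8.13% as lower), with a median of -0.18 against 0.0022 for all genes. TGFB2, a transforming growth factor, was lower (-0.66, adjusted p = 6.57e-09), as were CRIM1, a membrane protein that binds bone morphogenetic proteins (-0.49, 1.13e-05), and CCDC80, a matrix protein (-0.46, 6.25e-05). GADD45A, a stress-response gene, was higher (+0.29, 6.55e-07). At day 9, 4 were lower and 1 higher (1.41% of all genes passed), with a median of -0.31. TGFB2 was 5.06, 3.66 and 2.47 CPM without Pb and 0.115, 0.318 and 0.333 CPM with 10 µM at day 9 (-1.88, 9.89e-11), and CRIM1 was 7.02, 8.52 and 6.86 CPM against 0.612, 1.48 and 1.9 CPM (-1.90, 1.49e-10). No 10 µM library reached the lowest library without Pb in either gene. Without 0 µM day 9 replicate 2 the list held 3 calls at day 9, with CCDC80 (0.0918) and GADD45A (0.112) lost.

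Of 18 Hippo kinases and regulators, 2 were lower and 2 higher with 10 µM as the mean over days, where 15.1% of all genes passed. WWC2, an upstream scaffold, was lower (-0.30, adjusted p = 0.0376), and so was the angiomotin AMOT (-0.18, 0.0429), while VGLL4, a competitor of YAP for TEAD, was higher by 0.07 (0.0212). The list held 1 call when the filter was dropped or when only the groups compared were fitted, and many omissions of a single library ended the calls on AMOT (up to 0.0999, without 0 µM day 9 replicate 3) and WWC2 (up to 0.0902, without 10 µM day 9 replicate 3). Of the 4 TEAD factors, TEAD2 (-0.45, adjusted p = 7.75e-08) and TEAD4 (-0.16, 0.00446) were lower. The other CCN genes (CCN3 to CCN6) were not tested, with a highest value of 0.889 CPM in CCN5. Of 11 further genes of caveolae 8 were tested and 2 were lower, the neck ATPase EHD2 (-0.26, 0.000546) and PACSIN3 (-0.12, 0.000708). CAVIN2, CAVIN3 and CAV3 were too low to test, with highest values of 1.08, 0.665 and 0.273 CPM. CAV2, the partner of CAV1, was higher at day 18 than at day 6 (+0.97, adjusted p = 2.71e-12).

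Of 14 genes of hyaluronan synthesis, turnover and binding, 10 were tested, and 3 were lower and 0 higher with 10 µM as the mean over days (15.1% of all genes passed, 8.13% as lower). They were HMMR, a hyaluronan receptor that is also a gene of dividing cells (-0.40, adjusted p = 9.08e-09), MSN, the moesin that ties CD44 to actin (-0.32, 0.00702), and VCAN, a hyaluronan-binding proteoglycan (-0.31, 7.48e-09). HAS2, a hyaluronan synthase, was not tested (highest value 1.21 CPM). Of 13 tested genes of actin and adhesion, TPM1, a tropomyosin, was lower (-0.13, 0.00521, and -0.76 at day 9, 6.55e-10) and FHL2 was higher (+0.16, 0.0452, and up to 0.103 when a single library was left out, here 10 µM day 18 replicate 2). Over differentiation, at day 15 against day 6, where 58.3% of all genes passed, the YAP and TAZ targets split into 6 higher and 7 lower of 16 (CCDC80 +1.60, FJX1 -1.65, TGFB2 -1.52), the Hippo list into 3 higher and 9 lower of 18 (FAT1 +2.35, SAV1 -0.90), and the hyaluronan list into 4 higher and 1 lower of 10 (TNFAIP6 +1.56, VCAN +1.37). In the actin list 5 of 13 were higher and 2 lower (ACTG1 +0.67, ACTB +0.66, TPM1 -0.60), in the caveolar list 2 and 1 of 8 (EHD4 +0.94, PACSIN1 +0.66, CAVIN4 -0.48), and among the TEAD factors TEAD1 was lower (-0.46).

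Markers of mesenchymal cells, including the substrate-adherent (S-type) cells that neuroblastoma lines can hold, were lower with Pb along with these genes. Of 18 markers 16 were tested, of which 4 were lower and 0 higher at day 9 with 10 µM (1.41% of all genes passed, 0.963% as lower). As the mean over days (15.1%, 8.13% as lower) 11 were lower, led by COL3A1 (-1.88), VIM (-0.64) and COL1A1 (-0.61), and 2 were higher, ACTA2 (+0.40) and LUM (+0.16). The summed level at day 9 was 498 to 521 CPM without Pb, 492 to 520 CPM with 0.16 µM, 424 to 463 CPM with 1.26 µM and 371 to 412 CPM with 10 µM. VIM at day 9 was 66.3, 58.9 and 67.3 CPM without Pb and 20.4, 30.1 and 29.3 CPM with 10 µM (-1.26, adjusted p = 5.59e-14). PRRX1 and POSTN, which define fibroblast-like cells, were at most 0.197 and 0.0837 CPM in any library. The part of these markers in the results on CCN1, CCN2, CAVIN1, CD44 and LAYN was not tested.

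The label of the cells was checked against their own markers. Of 8 noradrenergic markers 4 were lower with 10 µM as the mean over days and 0 higher, with 15.1% of all genes passing there (TH -0.32, GATA2 -0.20, DBH -0.14), and 0 passed at day 9 at this dose, where their sum was 3480 to 4064 CPM without Pb and 2980 to 3745 CPM with it. At day 12 the sum was 10383 to 10956 CPM without Pb and 8941 to 9654 CPM with 10 µM. At day 15 it was 12977 to 13533 CPM and 12279 to 12960 CPM. The sums did not overlap at days 12 and 15, and did at days 6, 9 and 18. Schwann markers gave 1 higher of 3 tested (ERBB3 +0.21), epithelial markers 1 higher of 6 (CLDN4 +0.22), and the 7 endothelial and blood markers were all too low to test, with a sum of at most 0.362 CPM and HBB at 0.

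**Figure D5:**
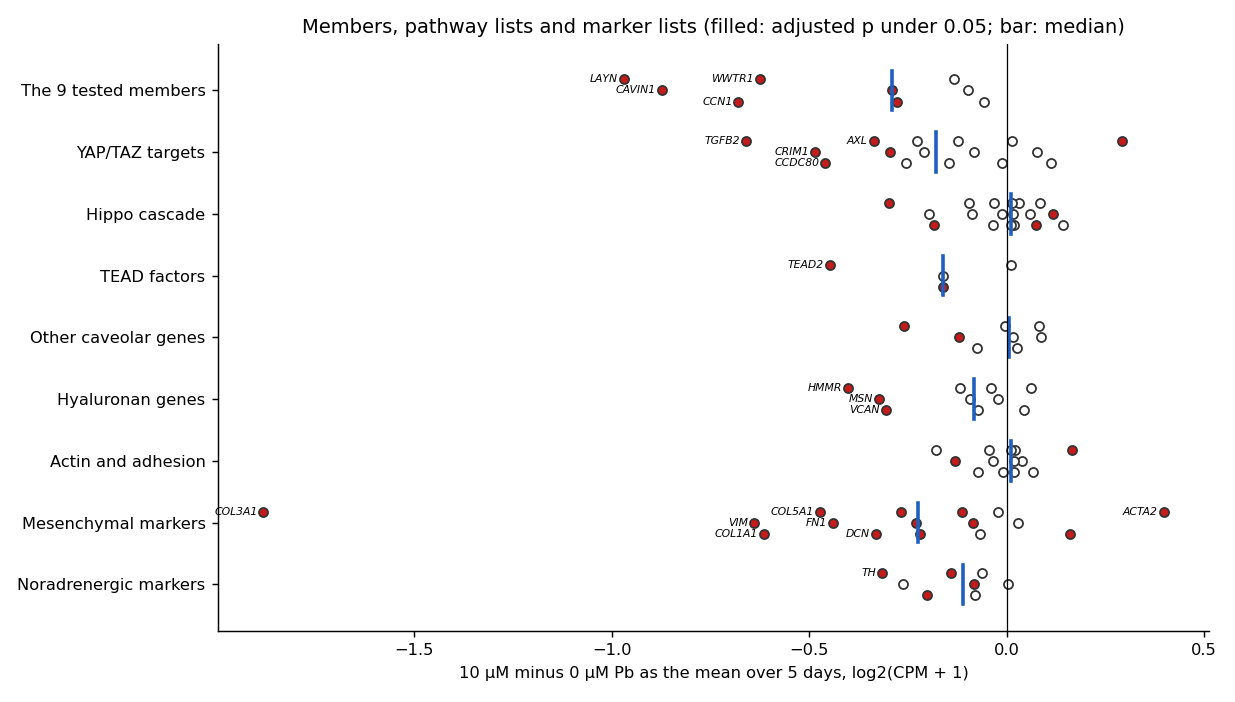
Difference between 10 µM and 0 µM Pb as the mean over 5 days (log2(CPM + 1)) for the 9 tested members, 6 pathway lists and 2 marker lists. Points are genes, filled where the adjusted p is under 0.05, and blue bars are medians. The median of the members is -0.29, the mesenchymal and target lists lie at -0.22 and -0.18, and the Hippo and actin lists lie at about 0.01.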

How the data were processed

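RNA of 60 dishes of SH-SY5Y cells (3 per day and dose) was sequenced. The authors deposited counts scaled to 1000000 reads per library (CPM) for 37334 genes, and STAR, featureCounts, FastQC and MultiQC with GRCh38 are named in the submitters' processing notes. Versions, annotation and strand setting are not given in the sources used here, so reads of antisense or overlapping genes could not be told apart. Divided by what 1 read is worth in its library, each deposited CPM came out whole (tolerance 0.01 read, 100% of values), so whole reads were recovered. Library depth was 16594259 to 50539599 assigned reads.

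Genes that reached 1 CPM in 3 or more libraries (15263) were fitted as log2(CPM + 1) with limma 3.58.1 (R 4.3.3, trend, 1 mean per group, 40 residual degrees of freedom), two-sided, with Benjamini-Hochberg adjustment over all genes kept and a threshold of 0.05. Errors of differences are SE, and those of CPM are SD of 3 libraries. The model was tested on simulated data. Only genes well above the filter were changed in that simulation, so it does not bear on the low members. Replicates are numbered dishes, so p-values measure the spread between dishes. edgeR 4.0.16 on the recovered reads, a pseudocount of 0.25, no filter, median-ratio rescaling, only the groups compared, a replicate block, omission of day 18, of the 2 libraries low in long transcripts and of each library, and dose in µM were tried. For the gene lists these were added after seeing the data. The members and lists were chosen with earlier results of these data known. All members are named, with up to 3 genes of each list by smallest p (10 µM, mean over days) or largest change (day 15 against day 6), the 3 genes most like each member, of which the leading ones are given, and up to 3 genes of each marker list.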

Additional observations from a re-analysis of the deposited data

Results flagged for a closer look

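The difference with Pb on the log2(CPM + 1) scale was tested for change between days in 9 genes. Over all doses 6 passed (11.8% of all genes), and for 10 µM alone 6 passed (21.7% of all genes). By the moderated F test of limma over all doses, the adjusted p was 4.23e-08 for CCN2, 8.474e-06 for CD44, 3.48e-05 for CCN1, 3.195e-05 for LAYN, 7.986e-05 for CAVIN1 and 0.04881 for WWTR1. For 10 µM alone it was 1.095e-06 for CCN2, 4.762e-06 for CD44, 8.93e-06 for CCN1, 4.257e-05 for CAVIN1, 4.51e-05 for LAYN and 0.01248 for ANKRD1. For CCN1, CCN2, ANKRD1, CAVIN1, CD44 and LAYN the estimate at day 9 was the most negative of the 5 days, and for WWTR1 it was that at day 12. The results for WWTR1 and ANKRD1 changed with the omission of single libraries and with the settings given above. CCN2 and ANKRD1 were near 0 from day 12 on, which by itself makes their difference small at those days on the log2(CPM + 1) scale, and both entered the test through the days at which they were high.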

How the results depend on the processing

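No difference of the members or lists that passed the test changed direction under any setting tried. Some that did not pass changed direction when a single library was left out. The ratio of YAP1 at 0.16 µM to 0 µM on day 12, for example, was 1.35 and became 0.505 without 0.16 µM day 12 replicate 2. Over the members' differences, 1634 values under other settings kept their side of the threshold, 26 lost it and 14 gained it, and with a single library left out these were 13929, 74 and 37. For the tests of change between days they were 130, 5 and 0, and 1031, 45 and 4. The count at day 15 against day 12 was 1 in place of 2 with a pseudocount of 0.25 and with no filter. At 1.26 µM, the count at day 9 was 0 in place of 1 with only the groups compared, at day 15 it was 1 in place of 0 with a pseudocount of 0.25, rescaling, edgeR and without the 2 libraries in which long transcripts were low, and at day 18 it was 0 in place of 1 with no filter, only the groups compared, edgeR and without those 2 libraries. At 10 µM on day 15 it was 2 in place of 1 with a pseudocount of 0.25. With a single library left out, the counts of members ran from 2 to 5 (day 9 against day 6), 5 to 7 (day 12), 5 to 6 (day 15), 1 to 2 (day 15 against day 12) and 3 to 4 (day 18 against day 15), from 0 to 1 (0.16 µM day 6, 10 µM day 6, and 1.26 µM days 15 and 18), 0 to 2 (1.26 µM day 9), 5 to 7 (10 µM day 9), 1 to 2 (day 15), 2 to 3 (day 18), 3 to 4 (1.26 µM mean), 6 to 7 (10 µM mean and dose step), and 5 to 7 and 5 to 6 (change between days, all doses and 10 µM). Of the lists at 10 µM on day 9, hyaluronan calls went from 2 to 1 (no filter) and 0 (only the groups compared), TEAD from 1 to 0 (no filter, only the groups compared, replicate block), Hippo from 1 to 0 and target genes from 5 to 3 (only the groups compared). As the mean over days, actin went from 2 to 1 (no filter, rescaling, without day 18, without the 2 libraries), Hippo from 4 to 1 (no filter, only the groups compared) and 2 (without day 18, without the 2 libraries), caveolae and TEAD from 2 to 1 and epithelial and Schwann from 1 to 0 (without day 18), and epithelial to 2 (without the 2 libraries). At day 15 against day 6, rescaling took caveolae from 3 to 5 and TEAD from 1 to 2. With a single library left out, list calls ran at day 15 against day 6 from 11 to 14 (targets), 9 to 13 (Hippo), 5 to 8 (actin), 1 to 3 (caveolae) and 0 to 2 (TEAD), at day 9 with 10 µM from 3 to 6 (targets), 0 to 2 (hyaluronan) and 0 to 1 (Hippo, TEAD), and for the mean from 1 to 4 (Hippo), 1 to 3 (actin), 2 to 3 (TEAD) and 1 to 2 (epithelial). The cause of these changes was not tested. Replicate numbers did not pair the dishes (90 same-numbered pairs within a day, median r 0.015, 23 over 0.1), and with the replicate block 6 members passed for 10 µM at day 9 as before (7 without the 2 libraries, 5 with edgeR and 4 with only the groups compared), while the mean of CCN1 at 1.26 µM moved from 0.04995 to 0.0500031. Over all genes, with only the groups compared, calls went from 785 to 522 (day 9 against day 6), 5079 to 2455 (day 18 against day 15), from 61 to 6, 192 to 13 and 1890 to 0 (1.26 µM days 9, 15 and 18), 967 to 0 (0.16 µM day 18), from 100 to 1, 215 to 80, 819 to 480, 867 to 355 and 4418 to 1543 (10 µM days 6 to 18), 586 to 362 (1.26 µM mean) and 3308 to 2008 (change between days, 10 µM). Without day 18 they went from 2298 to 1497 and 586 to 247 (10 and 1.26 µM means), and from 1806 to 419 and 3308 to 825 (change between days, all doses and 10 µM). Without the 2 libraries they went from 967 to 117, 1890 to 583 and 100 to 23 (0.16 and 1.26 µM day 18, 10 µM day 6), and from 192 to 303 (1.26 µM day 15). With no filter 0.16 µM at day 18 gave 610. Counts of at most 19 genes (0.16 µM at other days and as the mean, 1.26 µM at days 6 and 12) lay between 0 and 46 under all settings. Depth limits YAP1 and ANKRD1 at all days, CAV1 at days 6 to 15 and CCN2 from day 12. CAV1 at those days, and CCN2 and ANKRD1 from day 12, mostly lay near or below 3 reads per library. YAP1 had 377 reads in 60 libraries. ANKRD1 had 49 and 99 reads in the 3 libraries without Pb at days 6 and 9.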
